A study of Mus musculus with 6 samples.

Results

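Histamine, basophil and eosinophil granule genes were examined in sorted mouse bone marrow cells. The set held 10 genes chosen by name: Hdc, Mcpt8, Prss34, Prg2, Prg3, Fcer1a, Cpa3, Epx, Ms4a2 and Gata2. Every probe that the platform annotation gives to one of these symbols was taken, which came to 14 of the 45281 probes on the array and to 10 of the 19057 genes named there. Of these probes 12 were detected on at least 3 of the 6 arrays (detection p under 0.05) and were tested, covering 8 of the genes, while the single probes of Epx and Ms4a2 were detected on no array.

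Total RNA came from cells sorted as B220+CD43+, which the labels describe as pre-B cells, and was measured on single-colour Illumina BeadChips. The groups were 3 arrays labelled Fnip1-null (Fnip 1 -/-) and 3 labelled wild type, here called A, B and C within each group. The labels give no treatment, time point, strain or age. The scanner column names of the Fnip1-null arrays also read LPAB - Yugioh KO, where those of the wild-type arrays read WT. The meaning of LPAB - Yugioh is not stated. Fnip1 encodes a partner of folliculin that links energy and nutrient sensing. Nothing in the labels says whether the 3 samples of a group are separate animals or pools. Each p-value below judges a group difference against the variation among these samples only.

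Basophils, mast cells and eosinophils are granulocytes that arise in bone marrow under GATA transcription factors and store their effector molecules in granules. Basophils and mast cells make histamine with histidine decarboxylase and release it when antigen crosslinks IgE bound to the receptor FcεRI. Eosinophil granules are packed with major basic protein and a peroxidase. None of these products defines a B-lineage cell, and a sort on B220 and CD43 leaves the identity of the cells that carry the transcripts unstated.

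The promoter windows of the 4 genes that passed the test are shown because they moved in opposite directions and because GATA factors direct these lineages. Each is the 250 bases before the start used in a RefSeq promoter table (build GRCm38.p6), read 5′ to 3′ on the strand of the gene. For Hdc, Mcpt8 and Prg3 that start lies inside the outer bounds of the gene given below, so these windows overlap the annotated gene, those of Hdc and Mcpt8 entirely. Capitals mark matches on either strand to the GATA motif, searched as AGATAA with its variant AGATAG and as TGATAA with its variant TGATAG.

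Hdc, chr2:126618679-126618928, minus strand: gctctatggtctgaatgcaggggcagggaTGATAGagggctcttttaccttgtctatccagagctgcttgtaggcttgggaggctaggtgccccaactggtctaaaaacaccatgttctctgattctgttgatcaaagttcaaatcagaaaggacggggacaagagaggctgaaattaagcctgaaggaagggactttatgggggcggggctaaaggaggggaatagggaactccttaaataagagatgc

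Prss34, chr17:25298144-25298393, plus strand: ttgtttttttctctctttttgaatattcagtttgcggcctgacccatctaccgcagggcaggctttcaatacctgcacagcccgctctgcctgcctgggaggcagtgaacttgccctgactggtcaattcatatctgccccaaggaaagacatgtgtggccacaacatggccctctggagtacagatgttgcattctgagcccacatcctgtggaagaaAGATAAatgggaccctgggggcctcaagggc

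Mcpt8, chr14:56085198-56085447, minus strand: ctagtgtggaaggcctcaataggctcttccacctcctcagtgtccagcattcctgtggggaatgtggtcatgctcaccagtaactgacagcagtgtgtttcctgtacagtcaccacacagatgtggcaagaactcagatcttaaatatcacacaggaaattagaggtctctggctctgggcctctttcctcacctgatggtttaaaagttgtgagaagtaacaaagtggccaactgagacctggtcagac

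Prg3, chr2:84987965-84988214, plus strand: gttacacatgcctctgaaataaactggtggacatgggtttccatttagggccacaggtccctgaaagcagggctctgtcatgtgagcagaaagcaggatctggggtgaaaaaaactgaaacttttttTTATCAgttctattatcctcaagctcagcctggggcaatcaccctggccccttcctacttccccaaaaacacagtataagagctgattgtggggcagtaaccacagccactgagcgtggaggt

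Such a match stood in 26.5% of all 32851 windows of this length, and in 6 of the 10 windows of the 9 genes that had one. Counted back from the start that the promoter table uses, the Hdc window held TGATAG at 221 bases, the Prss34 window AGATAA at 31 bases and the Prg3 window TTATCA, the reverse complement of TGATAA, at 123 bases. The window of Mcpt8 held none of these letters. Hdc, which was higher, and Prss34 and Prg3, which were lower, thus all carried a match, and a match is a description of these letters only.

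The first comparison asked which of these genes differed between the genotypes. Hdc was far higher on the arrays labelled Fnip1-null, whereas Mcpt8, Prss34 and Prg3 were lower there, and Prg2, Fcer1a, Cpa3 and Gata2 did not pass the test. Of the 12 tested probes 2 were higher and 3 lower (limma with Benjamini-Hochberg adjustment over all tested probes, adjusted p under 0.05). Over all 18172 tested probes 14.2% were called, 7.7% as higher and 6.51% as lower. The groups did not overlap for 5 of the 12 probes, beside 33.8% of all tested probes. By gene, 4 of 8 were called and 4 did not overlap, where 13.1% and 33% of all 9679 tested genes did so. Prg3 could pass the detection filter only through the wild-type arrays, and the genes were chosen with results of these data known, so these shares are a description. In RNA from a bulk sort, fewer cells of a type and less RNA per cell cannot be told apart.

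**Figure D1:**
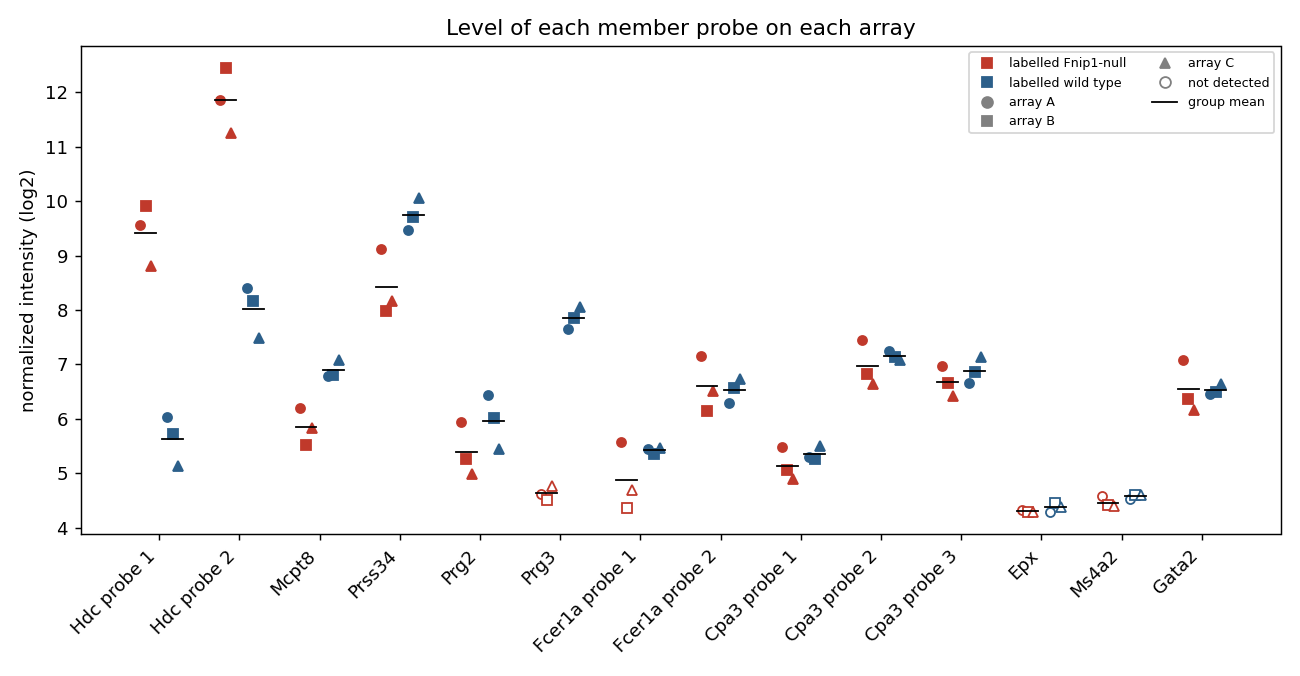
Normalized intensity (log2, vertical axis) of the 14 probes of the 10 genes on each array. Red marks arrays labelled Fnip1-null and blue arrays labelled wild type, circles, squares and triangles are arrays A, B and C, open symbols are probes not detected at p under 0.05, and black lines are group means. Hdc lies at 11.26 or more on the Fnip1-null arrays by its brighter probe and at 8.40 or less on the wild-type arrays, while Prg3 is open on all 3 Fnip1-null arrays.

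Hdc encodes histidine decarboxylase, the enzyme that makes histamine from histidine (chromosome 2, 126593659 to 126624025, GRCm38.p6). Its brighter probe gave deposited signals of 3393, 5899 and 2518 on arrays A, B and C labelled Fnip1-null, and of 369, 309 and 186 on those labelled wild type. The lowest Fnip1-null array was well above the highest wild-type array. On the normalized log2 scale the means were 11.85 ± 0.59 and 8.02 ± 0.47 (SD, n = 3 each), a 14.3-fold difference with a 95% interval of 8.91 to 23.0 (limma adjusted p = 7.19e-05). The dimmer probe gave levels of 9.56, 9.91 and 8.80 against 6.04, 5.72 and 5.12, a 13.9-fold difference (interval 8.76 to 22.0, adjusted p = 6.42e-05). Both probes thus put array B highest and array C lowest among the Fnip1-null arrays, and array A highest among the wild-type arrays. By exact permutation (two-sided) p was 0.1 for each probe, the smallest that 3 arrays against 3 allow. Among 9679 genes with a tested probe, Hdc by its brighter probe had the rank of 2 from the highest difference. Both probes kept their call under all 16 alternative settings.

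The genes that degrade, carry or sense histamine did not pass the test. Of 11 such genes 3 were tested, none was called, and 7 had a probe that was detected on no array. The undetected genes included Hnmt and Aoc1, which break histamine down, Slc18a2, the vesicular transporter that loads it into granules, and the receptor gene Hrh4. Aldh2, an aldehyde dehydrogenase gene, had a log2 difference of 0.11 (limma adjusted p = 0.551) at levels of 12.45 to 12.70 over the 6 arrays. Hrh2, a histamine receptor gene, had a log2 difference of 0.23 (adjusted p = 0.260) at levels of 6.11 to 6.53. The median log2 difference of the 3 tested genes was 0.13, beside 0.01 over all tested genes.

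The basophil proteases fell while Hdc rose. Mcpt8 encodes mast cell protease 8, a granule serine protease known in mouse as a basophil marker (chromosome 14, 56082163 to 56085499). Its levels were 6.21, 5.53 and 5.84 on arrays A, B and C labelled Fnip1-null and 6.78, 6.81 and 7.08 on those labelled wild type, so the groups did not overlap. The Fnip1-null mean was 2.04-fold lower (95% interval 1.56 to 2.67, limma adjusted p = 0.00486, exact permutation p = 0.1). The call held under all 16 alternatives, with adjusted p between 0.00156 and 0.0452.

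Prss34 encodes mast cell protease 11, a tryptase of mouse basophils (chromosome 17, 25298394 to 25300168). Its levels were 9.13, 7.98 and 8.16 on the Fnip1-null arrays and 9.47, 9.72 and 10.06 on the wild-type arrays. Array A labelled Fnip1-null was the closest to the wild-type arrays, and the groups did not overlap. The means were 8.42 ± 0.61 and 9.75 ± 0.30 (SD, n = 3 each), a 2.51-fold lower level on the Fnip1-null arrays (interval 1.63 to 3.87, limma adjusted p = 0.0134). The call was lost without array C labelled wild type (log2 difference -1.17, adjusted p = 0.0513), with no detection filter (adjusted p = 0.0976), with a robust intensity trend (adjusted p = 0.0633) and with the replicate block on the series matrix values (adjusted p = 0.0950).

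**Figure D2:**
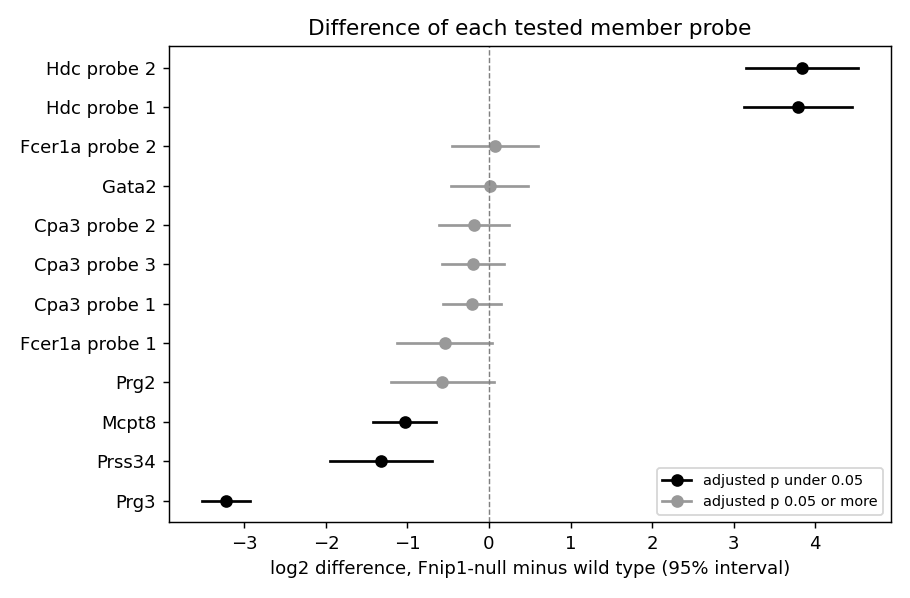
Log2 difference between arrays labelled Fnip1-null and wild type (horizontal axis) for the 12 tested probes, as points with 95% intervals from the limma fit, black where the adjusted p was under 0.05 and grey otherwise. Both Hdc probes lie near 3.8 and Prg3, Prss34 and Mcpt8 lie below 0. Prg3 is drawn at its fitted difference, although its Fnip1-null levels were not above background.

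Of the eosinophil granule genes Prg3 fell and its neighbour Prg2 did not pass. Prg3 encodes the second form of major basic protein (chromosome 2, 84988196 to 84996559). The deposited signals were 44.7, 43.9 and 49.1 on the Fnip1-null arrays, none of them above background (scanner detection values 0.0983, 0.144 and 0.0545), and 228, 256 and 272 on the wild-type arrays. With the main processing Prg3 was therefore at least 8.45-fold lower under the Fnip1-null label. This bound sets the wild-type mean against the lowest detected signal on each dim array, or the probe's own level where that is higher. It has no interval and holds only on the scale of that processing. The measured means were 4.63 ± 0.12 and 7.86 ± 0.21 (SD, n = 3 each) on the log2 scale. The fitted log2 difference ran from -4.79 in the authors' processed values to -2.13 with no background correction. It was called under each of the 15 alternatives that tested it. Prg3 passed the detection filter only through the wild-type arrays, where it is high, so the call is a description.

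Prg2, which encodes the main form of major basic protein, lies next to Prg3 (chromosome 2, 84980461 to 84983632). Its levels were 5.94, 5.27 and 4.98 on the Fnip1-null arrays and 6.44, 6.01 and 5.45 on the wild-type arrays, and the groups overlapped. The log2 difference was -0.57 with a 95% interval of -1.21 to 0.06 (limma adjusted p = 0.221). Array A was highest and array C lowest in both groups. The difference between the changes of the neighbouring genes was not tested.

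Epx, the eosinophil peroxidase gene (chromosome 11, 87863997 to 87875536), stood at signals of 35.5 to 40.9 on all 6 arrays, none of them detected. The other eosinophil genes gave little more. Of 10 genes of eosinophil ribonucleases and receptors 1 was tested and 3 had no probe named for them in the table used here. The tested gene was Adgre1, a macrophage and eosinophil receptor gene, at a log2 difference of -0.34 (limma adjusted p = 0.270). Ccr3, Siglecf and Ear6, which mark mouse eosinophils, were detected on no array. Of the 7 eosinophil markers with a probe, only Prg2 and Prg3 were tested.

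The receptor for IgE showed no called change. Fcer1a encodes the chain that binds IgE (chromosome 1, 173221269 to 173227232), and its probes differed from each other. The brighter probe read 7.16, 6.15 and 6.51 on the Fnip1-null arrays and 6.29, 6.57 and 6.73 on the wild-type arrays, a log2 difference of 0.08 with an interval of -0.45 to 0.60 (limma adjusted p = 0.874). The highest and the lowest of the 6 values were both on Fnip1-null arrays. The dimmer probe read 5.58, 4.37 and 4.69 against 5.45, 5.35 and 5.47, and was detected on 1 of 3 Fnip1-null arrays and on all 3 wild-type arrays. Its log2 difference was -0.55 (interval -1.13 to 0.04, adjusted p = 0.204). Without array A labelled Fnip1-null it stood at -0.90 (adjusted p = 0.00457) and the brighter probe at -0.20 (adjusted p = 0.507). Ms4a2, the signal-amplifying beta chain of the receptor (chromosome 19, 11615517 to 11623790), had signals of 39.5 to 45.5 and was detected on no array.

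Downstream of the receptor, 4 of 12 tested signalling genes rose and none fell, beside 7.86% of all tested genes called higher and 5.25% called lower. Lat, the adaptor that couples the receptor to phospholipase C and that T cells use as well, rose by 2.42 on the log2 scale (SE 0.14, limma adjusted p = 1.06e-05), with Fnip1-null levels of 9.55, 9.91 and 9.73 against 7.54, 7.26 and 7.14. Grap2, an adaptor that binds LAT complexes, rose by 0.66 (adjusted p = 0.00504). These kept their call under all 16 alternatives. Inpp5d, the lipid phosphatase SHIP1, rose by 0.43 (adjusted p = 0.0293) and Btk, a kinase that B cells also need, by 0.48 (adjusted p = 0.0366), but they lost their calls under 7 and 8 alternatives, 5 of them in each case with 1 array left out. Fcer1g, the shared gamma chain, ranged from 11.99 to 12.59 and had a log2 difference of 0.14 (adjusted p = 0.627). By their brightest probes the median log2 difference of the list was 0.09, while a dimmer probe of Lat2, an adaptor related to LAT, was called lower at -0.34 (adjusted p = 0.0451) against 0.01 for its brightest probe.

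Cpa3 encodes carboxypeptidase A3, a granule protease of mast cells and basophils (chromosome 3, 20215616 to 20242209). Its brightest probe read 7.46, 6.83 and 6.64 on the Fnip1-null arrays and 7.25, 7.14 and 7.08 on the wild-type arrays. The Fnip1-null values lay on both sides of the wild-type values, with a log2 difference of -0.18 and an interval of -0.61 to 0.25 (limma adjusted p = 0.587). The other probes gave -0.20 and -0.21 (adjusted p = 0.486 and 0.433). All 3 probes were highest on array A among the Fnip1-null arrays.

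Most other mast cell genes listed were not detected. Of 12 mast cell genes, mostly of granule proteins, 1 was tested. Of the 11 with a probe 9 were detected on no array, including the tryptase genes Tpsab1 and Tpsb2 and the chymase gene Mcpt4. Srgn, the core protein of granule proteoglycans in many blood cells, fell by 0.57 (limma adjusted p = 0.0302). Of the 16 alternatives 8 removed that call, including 5 that dropped a single array. Of 6 mast cell markers Cpa3 and Kit were tested.

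Among receptors of basophils and mast cells 4 of 8 tested genes rose and none fell, beside the 7.86% and 5.25% of all tested genes. Cd69, an activation antigen of many lymphocytes, rose by 1.20 on the log2 scale (SE 0.20, limma adjusted p = 0.00446), with Fnip1-null levels of 12.46, 12.26 and 11.84 against 11.25, 10.63 and 11.08, although its dimmer probe gave 0.21 (adjusted p = 0.322). Kit, the stem cell factor receptor of mast cells and progenitors, rose by 1.01 (adjusted p = 0.0155), Cd63, a granule membrane tetraspanin, by 0.92 (adjusted p = 0.0186) and Il18r1, an interleukin-18 receptor chain, by 0.92 (adjusted p = 0.0325). Dimmer probes gave 0.46 for Cd63 and 0.41 for Il18r1 and did not pass, and a further Cd63 probe gave 0.90. Cd69 kept its call under all 16 alternatives. Leaving out wild-type array B, or wild-type array C, ended the calls of both Kit and Cd63, and leaving out Fnip1-null array B ended that of Kit. Il18r1 lost its call under 8 alternatives, among them those without array B or C of either group. Cd200r3, a receptor of mouse basophils and mast cells, read 5.28, 4.95 and 4.64 on the Fnip1-null arrays and 5.35, 5.55 and 5.48 on the wild-type arrays, and its difference of -0.50 did not pass (adjusted p = 0.0685). The median of the list was 0.64.

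**Figure D3:**
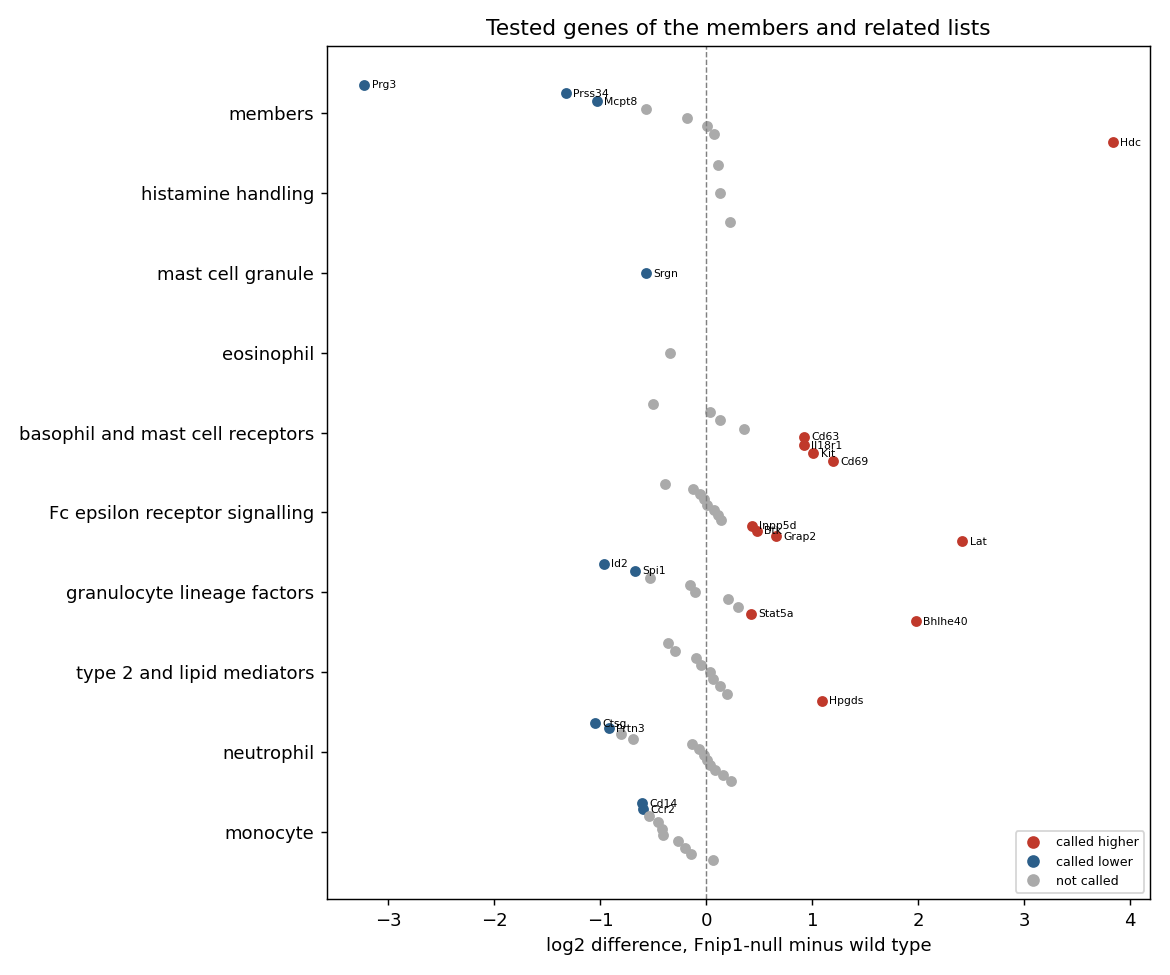
Log2 difference between arrays labelled Fnip1-null and wild type (horizontal axis) of every tested gene, by its brightest tested probe, in the set of 10 genes and in 9 related lists. Red points were called higher, blue points lower and grey points neither, and called genes are named. Hdc lies at 3.84. Prg3 lies at a fitted -3.23, although it was detected on no Fnip1-null array, and Hpgds was detected on no wild-type array.

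Gata2 encodes the transcription factor that basophils, mast cells and early progenitors require (chromosome 6, 88193891 to 88207032). It read 7.08, 6.37 and 6.17 on the Fnip1-null arrays and 6.46, 6.50 and 6.64 on the wild-type arrays. The mean was nearly equal in both groups, with a log2 difference of 0.01 and an interval of -0.47 to 0.48 (limma adjusted p = 0.990). The Fnip1-null spread (SD 0.48) was wider than the wild-type spread (SD 0.09). Without array A labelled Fnip1-null the difference was -0.26 (adjusted p = 0.219).

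Of 9 tested factors of granulocyte development 2 rose and 2 fell (7.86% and 5.25% of all tested genes), with a median of -0.11. Bhlhe40, a repressor used by several lymphoid and myeloid cells, rose by 1.98 on the log2 scale (SE 0.11, limma adjusted p = 7.38e-06), with Fnip1-null levels of 9.55, 9.60 and 9.70 against 7.70, 7.72 and 7.51. Stat5a, which carries signals of interleukin-3, interleukin-5 and interleukin-7 receptors, rose by 0.42 (adjusted p = 0.0366). Id2, an inhibitor of E proteins, fell by 0.97 (adjusted p = 0.00171), and Spi1, the myeloid and B-lineage factor PU.1, fell by 0.67 (adjusted p = 0.0173). Bhlhe40 and Id2 kept their calls under all alternatives, while Stat5a lost its call under 8 and Spi1 under 4. Spi1 lost it without array B of either group, and Stat5a without any array but C labelled Fnip1-null. The probes for Gata1, which directs eosinophil development, were detected on no array.

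Among genes of type 2 cytokines and lipid mediators 1 of 9 tested rose and none fell (7.86% and 5.25% of all tested genes). Hpgds, the prostaglandin D synthase of blood cells, read 5.76, 5.59 and 5.56 on the Fnip1-null arrays and was not well above background on any wild-type array. By the same kind of bound it was at least 1.84-fold higher with the main processing. The measured values gave a fitted 2.13-fold difference (limma adjusted p = 0.000339). Hpgds was called under all 15 alternatives that tested it, and fits with 1 array left out again kept the filter set on all 6. It passed that filter only through the Fnip1-null arrays, so the call is a description. Il4 had a log2 difference of -0.10 and Il13 of 0.06 (adjusted p = 0.744 and 0.818), each detected on 3 of the 6 arrays. The median of the list was 0.04.

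Within the groups, the arrays ordered the genes differently. Array A labelled Fnip1-null was the highest Fnip1-null array for Mcpt8, Prss34, Prg2, Cpa3, Fcer1a and Gata2, by 0.35 to 0.70 above its group mean, whereas Hdc was highest on array B by 0.59 and at the group mean on array A, and Prg3, not above background there, was highest on array C. Neutrophil markers were high on that array A too: Camp, a cathelicidin gene, was 1.39, Ltf, the lactoferrin gene, 1.14 and S100a8, a calprotectin gene, 1.07 above the Fnip1-null mean. This was not particular to these lists. Hba-a1 of the erythroid list read 11.48 there against 10.21 and 9.49 on Fnip1-null arrays B and C. Lyz2 of the monocyte list read 13.30 against 12.76 and 12.48. Other genes, such as Srgn and Il18r1, were lowest on that array. Among wild-type arrays, array C was highest for Mcpt8, Prss34, Prg3, Fcer1a and Gata2 and lowest for Hdc, Prg2, the brightest Cpa3 probe and the neutrophil genes plotted, whereas the other Cpa3 probes were highest there. Xist read 4.22 and 4.62 on the arrays A and 9.51 to 10.79 on the others, and the Y-linked Eif2s3y 9.45 and 9.92 against 4.22 to 4.28. By these genes array A of each group read as male and arrays B and C as female, and the fit had no term for sex. The part of these differences in the results was not tested.

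**Figure D4:**
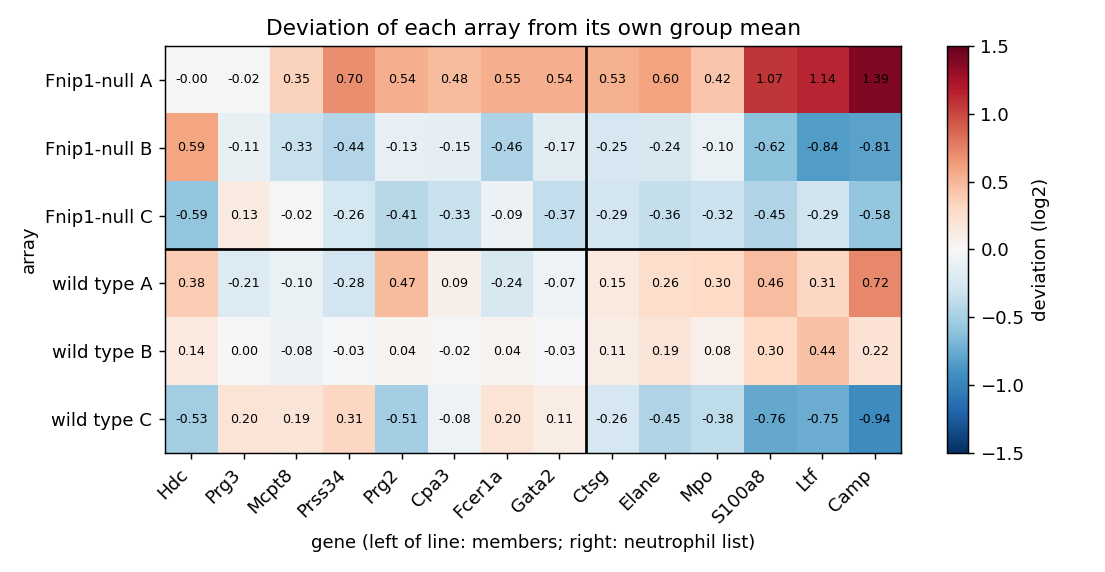
Deviation of each array from the mean of its own group (log2, colour and printed value) for the 8 tested genes of the set, left of the line, and 6 neutrophil genes, right of it, which were chosen after their values were seen. Rows are the 6 arrays. Array A labelled Fnip1-null is above its group mean by 0.35 to 1.39 for every gene shown besides Hdc and Prg3.

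Other bone marrow cells were followed by their markers beside these genes. Of all tested genes 7.86% were called higher and 5.25% lower, and counts from lists this short are a description. Of 12 tested neutrophil markers (of 15 listed) 2 fell and none rose, with a median of -0.05, and their summed normalized intensity ran from 12400 to 44076 on the Fnip1-null and from 11278 to 27284 on the wild-type arrays. Those that fell were Ctsg, the cathepsin G gene (-1.05, limma adjusted p = 0.0128), and Prtn3, the proteinase 3 gene (-0.92, adjusted p = 0.0465), both primary granule proteases. Ctsg lost its call without array B labelled Fnip1-null, and Prtn3 under 9 of 16 alternatives. Elane and Mpo, which are stored in the same granules, had differences of -0.80 and -0.70 (adjusted p = 0.0774 and 0.0647). Of 10 tested monocyte markers 2 fell, Ccr2 (-0.60) and Cd14 (-0.61), with a median of -0.41 and summed intensities of 12378 to 19107 against 14150 to 20377; they lost their calls under 7 and 10 alternatives. Neither of 2 tested megakaryocyte markers passed, Gp9 and Itgb3 (-0.15 and 0.22), with sums of 62.1 to 65.1 against 57.5 to 70.0, and Pf4 was detected on no array. Their part in the results was not tested.

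Some lymphoid and erythroid markers were called, where 7.86% of all tested genes were higher and 5.25% lower. These lists are short as well, and their counts are a description. Of 6 tested T cell markers Cd3e (1.20) and Cd8b1 (0.58) rose and Thy1 (-0.90) fell, with sums of 2351 to 3072 against 1928 to 2185, while other probes of Cd8b1 gave 0.64 and -0.84. Of 6 tested natural killer markers Eomes fell (-0.86), with sums of 3567 to 4931 against 4353 to 6218, and Ncr1 was detected on no array. A dimmer probe of Prf1, the perforin gene, was called lower at -0.67 (limma adjusted p = 0.0272) against 0.01 for its brightest probe. Of 5 tested erythroid markers Car2 fell (-0.55), with sums of 2898 to 5822 against 4377 to 4754. None of 6 tested plasmacytoid dendritic markers passed, among them Siglech (0.01) and Tcf4 (0.09), with sums of 20234 to 25795 against 17511 to 24221. Thy1 and Cd8b1 kept their calls whenever 1 array was left out, although Thy1 lost it with no detection filter. Cd3e lost its call under 4 alternatives, including those without array A or C labelled wild type. Eomes lost it under 3 of the 15 that tested it, including that without array A labelled Fnip1-null. Car2 lost it under 7.

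B-lineage markers were read beside the labelled cell type. Cd79b, Vpreb1, Igll1, Ebf1, Blnk, Rag1, Ptprc (B220) and Spn (CD43) were detected on all 6 arrays, and the probe for Pax5 on none. S100a8 of the neutrophil list was detected on all 6 as well, at levels of 11.96 to 14.02. Detection of these markers thus sets neither the stage nor the purity of the sorted cells. Of 8 tested B-lineage markers 3 fell and none rose, beside 5.25% and 7.86% of all tested genes. Rag1, the recombinase gene, fell by 2.06, Ebf1 by 0.52 and Cd79b by 0.49 (limma adjusted p = 7.38e-06, 0.0147 and 0.0304). Cd79b lost its call under 7 alternatives and Ebf1 under 2, one of them without array C labelled Fnip1-null. Summed B-lineage intensity was 24622 to 28545 on the Fnip1-null and 24074 to 29090 on the wild-type arrays. Fnip1 itself, by its brightest probe, was higher on the arrays labelled Fnip1-null (9.97 to 10.06 against 8.90 to 9.16). Its RNA thus showed no loss under that label, and RNA level alone does not check the label. The position of its probes relative to the targeted part is not given in the sources used here, so that every direction above is that of the labels.

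The genes with the closest profiles over the 6 arrays were found by the smallest root mean square difference of centred log2 levels. For Hdc these were Myl10 (difference 0.39, r = 0.98 over 6 arrays), Cxcr5 (0.66, r = 0.99) and Kcnf1 (0.66, r = 0.96). For Prg3 they were Cldn10 (0.32), Cd40 (0.42) and Diras2 (0.45), with r between 0.98 and 0.99. Mettl14 and Olfml2b were among the 3 closest to both Mcpt8 (0.11 and 0.13) and Prss34 (0.205 and 0.207), joined by Smco4 for Mcpt8 (0.13) and Hspa1b for Prss34 (0.18). For Prg2 they were Gpc1 (0.09), the neutrophil granule gene Mpo (0.13) and Gpr183 (0.14). Arap1, Tob2 and Mepce were closest to Fcer1a (0.08 to 0.12), Aqp9, St8sia1 and Slc30a7 to Cpa3 (0.07 each), and Sqle, Alas2 and Gpr22 to Gata2 (0.09 to 0.11). With 6 arrays in 2 groups, each correlation includes the group difference and is a description.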

How the data were processed

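Values came from 6 Illumina arrays, 3 per genotype. The deposited scanner table holds, per the file headers, a non-normalized signal intensity and a detection p-value per probe and array, and its columns name the genotype but no replicate number. The deposited series matrix holds the authors' processed values, taken as log2 from their range. The submitters' processing notes name affy; the background correction is not given in the sources used here. Signals were corrected by normexp from the detection p-values with an offset of 16, quantile normalized and put on a log2 scale (neqc, limma 3.58.1, R 4.3.3). Probes detected (p under 0.05) on 3 or more arrays were fitted together with lmFit and eBayes, without a block, and adjusted by Benjamini-Hochberg. The fit was tested on simulated data. Of the 45281 probes 34885 had 1 gene symbol, 18 several and 10378 none in the platform annotation, and 34807 symbols were updated to RefSeq (GRCm38.p6) through the gene number. A gene is represented by its brightest tested probe. All probes of the 10 genes, up to 4 called genes of lowest p per list (the 2 brightest where none was called) and the 3 closest profiles are named; others named, such as undetected markers, were chosen after their values were seen. The 10 genes and the 15 lists were chosen with earlier results of these data known. Precision is limited by the number of arrays, with between 17442 and 18294 probes detected on each.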

Additional observations from a re-analysis of the deposited data

How the results depend on the processing

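The 12 tested probes were followed under 16 alternatives. These changed filter, background, normalization, variance model or values, and they include the fits with each array left out in turn. Fits with 1 array left out kept the filter set on all 6. Of 190 values so obtained 176 kept direction and call. Leaving out 1 array gave 2 higher and 2 to 4 lower probes of the set. Over all tested probes it gave 834 to 1031 higher and 728 to 940 lower, against 1400 and 1183; without array B labelled Fnip1-null the counts were 834 and 728, and without array A or B labelled wild type 928 and 850 were higher. In the 15 other lists together 7 to 12 genes were then higher and 5 to 14 lower, against 13 each. With no detection filter 7 were higher and 3 lower there, and with the series matrix values 8 and 7; the cause was not tested. Gata2, near 0, turned to -0.010 with cyclic loess and to -0.0045 with the series matrix values, with or without the block, and ran from -0.26 to 0.19 with 1 array left out, as the brighter Fcer1a probe ran from -0.20 to 0.30. Only the series matrix carries replicate numbers. Deviations of same-numbered samples correlated at 0.17, -0.0032 and 0.23, and samples 1 and 3 but not 2 correlated best with their own number. With 3 samples per group this does not settle whether the numbers are pairs, and the main fit used no block. The replicate block on the series matrix values called 728 probes higher and 669 lower, with 8 and 6 in the lists. Prss34 then stood at -1.37 (limma adjusted p = 0.0950) and Prg2 at -0.88 (adjusted p = 0.0380). Probes near background have only a bound.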
